A study of Mus musculus with 4 samples.

Results

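The 4 sorted libraries of this experiment fell apart by their content of the tdTomato transgene, and the genes that followed that split are described here. Each library came from 50 cells of the spinal cord of a single mouse. All mice were C57BL6 animals (C57BL6/J in the series' design text) that had received AAV2-CAG-tdT, a viral vector (adeno-associated virus) with the gene of tdTomato, a red fluorescent protein, behind the CAG promoter, into a brain ventricle. CAG is a general promoter and not restricted to a cell type, the animals were wild type, and the labels name no age. Cells of dissociated slices with the ependymal region were sorted on scatter, tdTomato and a live/dead dye, against a C57BL6 preparation as the control of the sort (not analysed here). The aim was enrichment of neurons that contact the cerebrospinal fluid (CSF-cNs). By their labels the 4 libraries form 1 group.

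The sides, and with them the genes described, were chosen by measured counts and not by the labels. The row of the transgene, AAV2.CAG.tdT, held 5, 58, 13533 and 153379 counts in mice 1, 2, 3 and 4, and this order of mice is kept in every list of 4 values. The 2 libraries with more than 1000 counts (mice 3 and 4) are called transgene-rich, and the 2 with fewer than 1000 (mice 1 and 2) transgene-poor. The poor libraries go against their label in this respect. Because a measured value chose the sides, every difference between them is given as a description, with no test and no average over a side. A gene was called near absent on the poor side when it reached at least 10 CPM (counts scaled to a common library total with the TMM factors of edgeR) in both rich libraries and stayed under 1 CPM in both poor libraries. Of 18522 genes with at least 10 counts over the 4 libraries, 135 met this rule, the transgene among them, which is 0.729% of the genes tested.

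CSF-cNs lie around the central canal and send a short ciliated process into the fluid. They carry the polycystin channel Pkd2l1, most make the inhibitory transmitter GABA, their precursors use the transcription factors Gata2 and Gata3, and in the adult they are known to keep features of immature neurons such as the microtubule protein doublecortin (Dcx).

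The libraries held 115479640, 95186395, 83007030 and 85626022 counts, so the poor libraries were the deeper ones, and a count was recorded for 15773, 15869, 17291 and 16893 genes. A count of 0 allowed up to 0.0278, 0.0321, 0.0348 and 0.0334 CPM, equal to 3 counts, and this limit, like all intervals given, reflects counting error alone. By its labels each library is enriched in CSF-cNs, but microglial transcripts were abundant on both sides. The 10 microglia genes summed to 59377, 63183, 38081 and 53541 CPM, and 6 of the 10 were higher in both poor than in both rich libraries (14.7% of all tested genes were). Oligodendrocyte genes did not follow the split, with list sums of 15056, 238, 19272 and 459 CPM.

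Pkd2l1, Gad1 and Zcchc12 behaved like the transgene in telling mice 3 and 4 from mice 1 and 2. Pkd2l1 (chromosome 19, 44147637 to 44192442, minus strand of GRCm38, gene ENSMUSG00000037578.4) had 1930, 18, 57308 and 61938 counts, or 17.9, 0.193, 665 and 690.1 CPM. Its trace in mouse 1 kept it out of the near-absent genes. Zcchc12, an X-linked gene for a zinc finger protein that acts as a transcriptional coactivator, stood at 0.0925, 0.118, 403 and 441 CPM, from 10, 11, 34712 and 39584 counts (chromosome X, 36195904 to 36199158, plus strand, gene ENSMUSG00000036699.12). Gad1, which codes for a GABA-synthesizing enzyme, was at 0.0185, 0.107, 109.7 and 124 CPM (chromosome 2, 70553072 to 70602014, plus strand, gene ENSMUSG00000070880.10). In all 3 genes the rich libraries lay close together and far above both poor ones. The 95% Clopper-Pearson intervals of Zcchc12 were 0.0444 to 0.17 and 0.0588 to 0.211 CPM in mice 1 and 2 and 398 to 407 and 437 to 445 CPM in mice 3 and 4. In pools of cells, fewer cells of a type and less RNA per cell cannot be told apart.

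**Figure D1:**
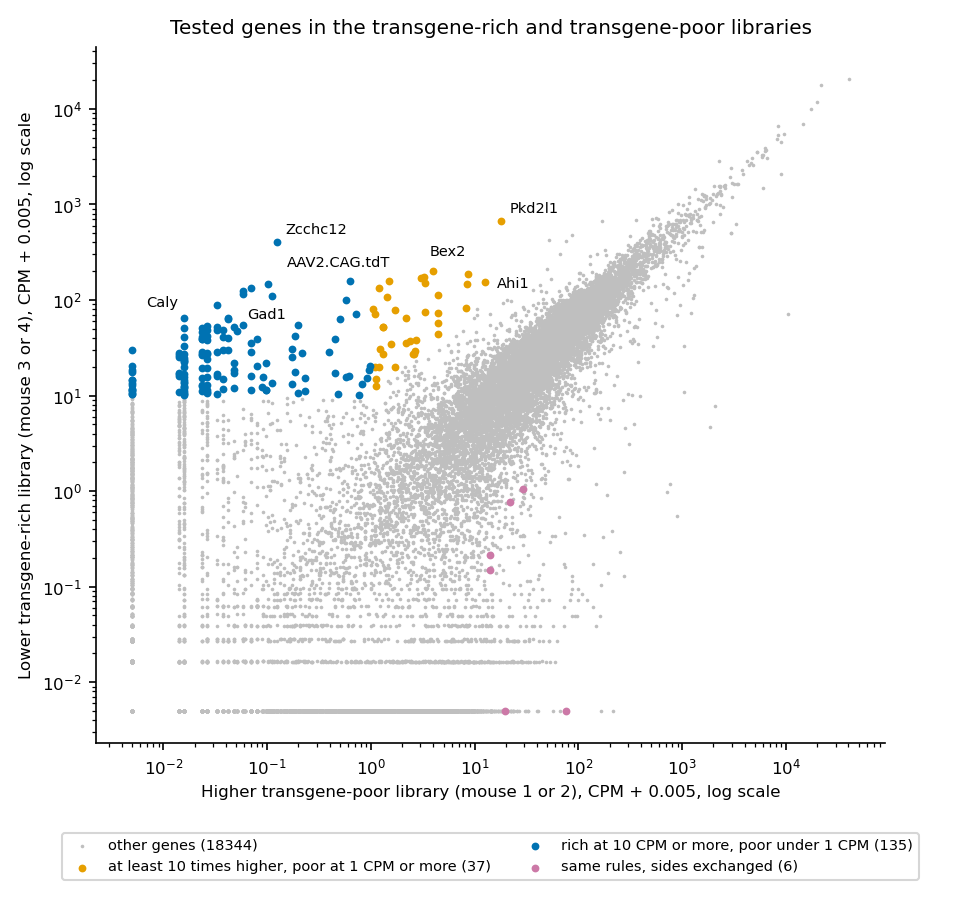
Each point is 1 of the 18522 tested genes, with the higher of the transgene-poor libraries on the x axis and the lower of the transgene-rich libraries on the y axis (CPM + 0.005, both log scales). The 135 blue points are at 10 CPM or more in both rich and under 1 CPM in both poor libraries, the 37 orange points are at least 10 times higher but not near absent, and the 6 pink points meet either rule with the sides exchanged. Pkd2l1 stands at 17.9 against 665 CPM and Zcchc12 at 0.118 against 403 CPM.

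The traces on the poor side were small. Without the transgene, the 134 near-absent genes together reached 7.66, 9.13, 5268 and 5163 CPM. In mice 3 and 4 they took 0.547% and 0.541% of the counts. The poor libraries reached 0.148% and 0.177% of the lower rich sum. Of the 135 rows, 39 had no count in mouse 1, 38 had none in mouse 2, and 14 had none in either. No more than 3 counts in each poor library were found for 81 rows, and 107 stayed at or under 0.1 CPM in both. The 28 rows above 0.1 CPM were mostly above it in a single poor library, with 10 in mouse 1 alone, 13 in mouse 2 alone and 5 in both. The summed level of these genes was thus nearly equal in the 2 rich libraries and nearly equal in the 2 poor ones.

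The list was much longer than its mirror image. With the sides exchanged, 4 genes (0.0216%) reached 10 CPM in both poor libraries and stayed under 1 CPM in both rich ones. These were Ptgs2, the inducible cyclooxygenase gene (76, 22.3, 0.0232 and 0 CPM), Zfp324 (19.6, 13.8, 0 and 0.123 CPM), the mitotic kinesin gene Kif18a (14, 10.1, 0.209 and 0.334 CPM) and Tatdn2 (14, 10.2, 0.928 and 0.145 CPM). Another 2 (0.0108%) were at least 10 times higher but not near absent, among them the olfactory receptor gene Olfr111 (29.3, 24.4, 1.43 and 1.05 CPM). Both rules together gave 6 genes (0.0324%) with the sides exchanged and 172 (0.929%) with the rich side higher. Moving the limit did not remove the difference in number. At 1 CPM, with the other side under the limit divided by 10, 573 genes were high on the rich side and 48 on the poor side. At 3 CPM the numbers were 367 and 21, at 30 CPM 55 and 0, and at 100 CPM 17 and 0. Without any size limit, 3503 genes (18.9%) were higher in both rich than in both poor libraries and 2727 (14.7%) were lower in both.

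**Figure D2:**
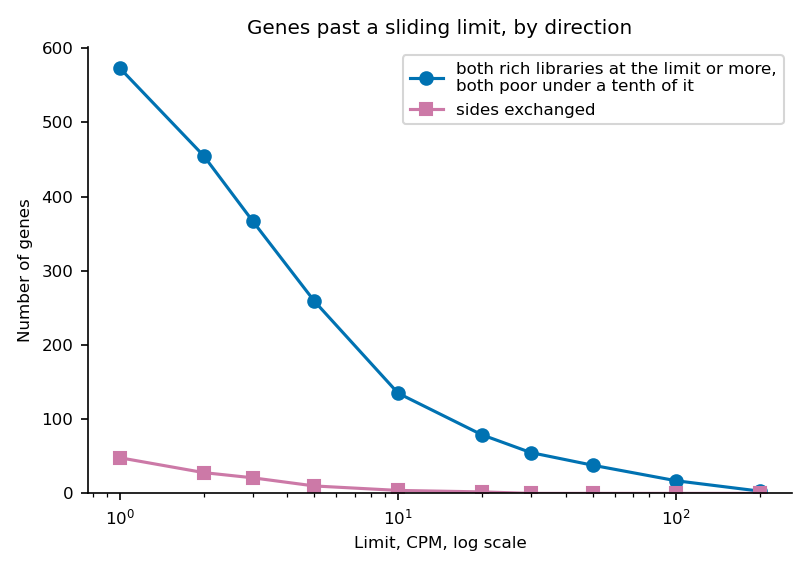
Number of genes (y axis) that reached a limit in CPM (x axis, log scale) in both libraries of a side while both libraries of the other side stayed under the limit divided by 10. The line of the rich side runs from 573 genes at 1 CPM through 135 at 10 CPM to 17 at 100 CPM, and the line with the sides exchanged from 48 to 4 to 0.

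The number depends on all 4 libraries meeting the limits. Without mouse 1, 2, 3 or 4 it was 259, 225, 241 or 280, each set holding all 135 rows, since a limit that fewer libraries must meet is met by more genes. Of the 135 rows, 132 were also found from each of the 2 run columns of the mice taken alone. Since these columns were taken as repeat runs of the same libraries, this is no check across cells or mice. With values scaled by exonic length the number was 111, of which 82 were shared.

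After Zcchc12 and the transgene, genes among the near-absent ones with a high lower rich value in CPM are described here. Fxyd6, for a regulator of the sodium pump, was at 0.037, 0.0963, 148 and 162 CPM. Pak3, for a kinase of the neuronal cytoskeleton, was at 0.00925, 0.0535, 123 and 141 CPM. Tmem130 was at 0.0555, 0.0642, 135 and 142 CPM and Qpct, for the cyclase that caps the ends of peptides, at 0.0278, 0.0535, 129 and 115 CPM. In each of these the poor libraries held at most 9 counts. Celf4, for a neuronal RNA-binding protein, had more of a trace (0.167, 0.567, 171 and 100 CPM), as did the G protein gamma subunit gene Gng3 (0.037, 0.706, 80.9 and 70.9 CPM). Nrsn2, for a vesicle membrane protein (0.0278, 0.0107, 95.9 and 89.5 CPM), Caly, for a protein of endocytosis (0.00925, 0.0107, 65.6 and 67.3 CPM), and the LIM-only cofactor gene Lmo1 (0.037, 0.0107, 71.4 and 64.9 CPM) were almost without counts on the poor side.

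These genes were picked by CPM, which can grow with transcript length, so levels of different genes were compared per kilobase of exonic sequence. On that scale, among the near-absent genes and those at least 10 times higher, Bex2, which belongs to a family of small X-linked neuronal proteins and is described with the graded genes below, had the highest lower rich value (223 and 222 CPM per kb in mice 3 and 4). Pkd2l1 followed (188 and 195 CPM per kb), then Zcchc12 (177 and 193 CPM per kb) and Resp18, a gene of neuroendocrine cells (169 and 359.9 CPM per kb). In mouse 4 Resp18 was above the other 3. Nrsn2 was at 65.9 and 61.5, Gng3 at 49.2 and 43.1, Gad1 at 14.4 and 16.2 and Pak3 at 12.8 and 14.8 CPM per kb.

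**Figure D3:**
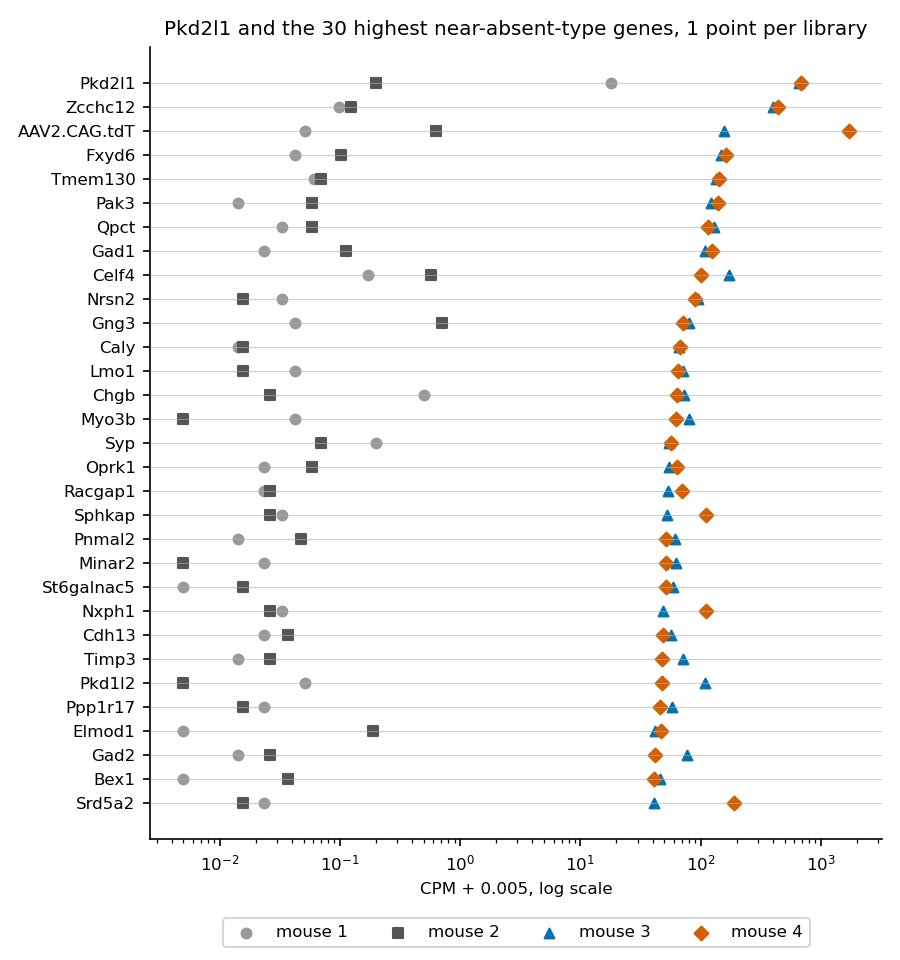
Levels of Pkd2l1 and of the 30 near-absent rows with the highest lower rich value (predicted genes left out), with 1 point per library (x axis, CPM + 0.005, log scale). Grey points are the transgene-poor libraries (mice 1 and 2) and coloured points the transgene-rich ones (mice 3 and 4). In these near-absent rows the coloured points lie at 41.3 CPM or more and the grey ones at 0.706 CPM or less, while Pkd2l1 in mouse 1 is at 17.9 CPM.

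Sequences upstream of the starts are shown for Zcchc12 and Gad1, which separated the sides as the transgene did, for Myo3b, a CSF-cN marker on it, and for Racgap1, whose place on it is described below. Each is the 250 bases before a RefSeq start on GRCm38.p6, read 5′ to 3′ on the gene's strand, with matches to GATAA (a letter pattern bound by GATA factors) or CAGNTG (one bound by factors such as Tal1) on either strand in capitals.
Zcchc12 (chrX:36195654-36195903, plus strand): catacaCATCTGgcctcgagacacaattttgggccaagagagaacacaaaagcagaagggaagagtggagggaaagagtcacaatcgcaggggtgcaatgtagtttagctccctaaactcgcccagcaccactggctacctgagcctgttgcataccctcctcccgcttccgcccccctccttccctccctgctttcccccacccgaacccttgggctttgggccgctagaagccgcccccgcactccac
Gad1 (chr2:70561879-70562128, plus strand): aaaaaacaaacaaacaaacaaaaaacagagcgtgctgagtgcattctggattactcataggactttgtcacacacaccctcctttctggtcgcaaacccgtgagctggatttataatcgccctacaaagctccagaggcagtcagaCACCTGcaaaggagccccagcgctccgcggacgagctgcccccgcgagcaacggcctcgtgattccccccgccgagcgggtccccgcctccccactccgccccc
Myo3b (chr2:70038876-70039125, plus strand): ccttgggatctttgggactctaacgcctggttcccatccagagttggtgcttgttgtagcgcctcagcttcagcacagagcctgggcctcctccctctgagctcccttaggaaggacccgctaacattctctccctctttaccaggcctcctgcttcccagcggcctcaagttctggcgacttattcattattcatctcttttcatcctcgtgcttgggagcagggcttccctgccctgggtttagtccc
Racgap1 (chr15:99651657-99651906, minus strand): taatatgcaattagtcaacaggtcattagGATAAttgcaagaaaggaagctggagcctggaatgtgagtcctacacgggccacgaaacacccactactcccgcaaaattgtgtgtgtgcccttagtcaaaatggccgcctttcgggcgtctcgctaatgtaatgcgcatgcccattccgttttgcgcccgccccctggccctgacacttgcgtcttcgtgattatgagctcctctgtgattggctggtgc

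Such a window was found for 102 of the 135 rows. GATAA occurred in 14 of them (13.7%), against 15.9% of the windows of 13250 tested genes and 23% of all 27025 windows. CAGNTG occurred in 46 (45.1%), against 39.4% of tested genes and 44.5% of all windows. Among the other genes at 10 CPM or more in both rich libraries the shares were 14.7% for GATAA and 35.4% for CAGNTG. The median GC content was 58.8% and 58.4% in near-absent and tested genes. A gene model was found for 132 of the 135 rows. Of these, 130 were protein coding (98.5%, against 89.7% of tested genes with a model and 98.6% of the other genes at 10 CPM or more in both rich libraries), and 11 lay on the X chromosome (8.33%, against 3.31% and 3.34%). Their median span was 53.5 kb, against 22.3 and 24 kb. Exons of another gene overlapped 45 of them, and since the libraries do not keep the strand, reads of those partners cannot be told apart. Without such genes, a choice made after the data were seen, 90 remained.

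Of the CSF-cN markers, all 8 with enough counts were higher in both rich than in both poor libraries (18.9% of all tested genes were). Myo3b, for a myosin of actin-filled protrusions (0.037, 0, 80.3 and 62.7 CPM), and the channel gene Pkd1l2 (0.0463, 0, 108 and 47.9 CPM) were near absent in the poor libraries. Tal2, a transcription factor gene of this lineage (0.00925, 0, 20.1 and 5.69 CPM), missed the rule because mouse 4 stayed under 10 CPM. So did Gata3 (0, 0, 16.2 and 7.38 CPM), and Gata2 likewise (0, 0.0107, 24.2 and 5.65 CPM). Espn, for an actin-bundling protein, was at 1.43, 2.39, 17.3 and 11.7 CPM, Tal1 overlapped closely between mice 2 and 3 (0.898, 10.3, 10.8 and 14.8 CPM), and P2rx2 had no count in any library.

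Of 14 tested transcription factor genes of spinal neurons and their lineages, 11 were higher in both rich libraries (18.9% of all tested genes were). The 3 that were not were Nkx6-2 (39.4, 0.342, 51.1 and 0.0557 CPM), Nkx2-2 (7.88, 0.0214, 10 and 0.0111 CPM) and Lmo4 (5.14, 17.2, 2.98 and 6.8 CPM). The first 2 were high in mice 1 and 3, as the oligodendrocyte genes were. St18 was higher in both rich libraries, with counts in all 4 (15.4, 3.11, 100.3 and 37.9 CPM). Only Myt1l, which represses non-neuronal genes, was near absent by the rule (0, 0.0107, 23.1 and 26.3 CPM). Sox1 (0, 0, 4.19 and 4.46 CPM), Nkx6-1 (0, 0, 4.14 and 2.36 CPM) and Hoxc6 (0, 0, 3.97 and 3.88 CPM) had no count in the poor libraries. Nor had Foxa2 (4.78 and 0.0111 CPM in mice 3 and 4), Myt1 (12.7 and 0.111), Insm1 (1.79 and 11.1) and Hoxb8 (0.116 and 0.969), which were uneven between the rich libraries. Foxa2 is among the 11 with 1 count in mouse 4. Sox14, Foxn4, Lhx3, Lhx5, Isl1, Pax2 and Pax6, which are known from spinal neurons or their precursors, had no count in any library. Further regulators of transcription among the near-absent genes were Lmo1, Pou3f2 (0, 0.0107, 10.1 and 13.1 CPM) and Hoxa9 (0.0185, 0.0107, 34.3 and 28.5 CPM), grouped after their values were seen.

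Genes of GABA synthesis were split between the sides, but the glycine transporter gene Slc6a9 was not. Gad1 was near absent, and so was Gad2, for the other GABA-synthesizing enzyme (0.00925, 0.0214, 76.5 and 42.2 CPM). Slc32a1, whose product loads GABA and glycine into vesicles, stayed under 10 CPM in every library (0.00925, 0.107, 5.16 and 1.7 CPM). Slc6a9 had values of 50.4, 0.0749, 57.6 and 1.63 CPM, high in mice 1 and 3, where the oligodendrocyte genes were also high. The part of other cells in that value was not tested. Other spinal neurons are marked by Chat, Mnx1 and the vesicular glutamate transporters Slc17a8, Slc17a7 and Slc17a6, none of which had a count. Of the same list, Slc18a3, for the vesicular acetylcholine transporter, was at 0, 3.61, 0 and 0 CPM, and the calcium-binding protein genes Calb1 and Calb2 at 0, 0, 14.4 and 0 CPM and at 2.3, 0.214, 1.81 and 2.57 CPM.

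Of 16 tested genes of dense-core vesicles and peptide processing, 14 were higher in both rich libraries (18.9% of all tested genes were), 4 were near absent (against 0.729%) and 4 more were at least 10 times higher (against 0.2%). The list's median was 0.0787, 0.348, 30.5 and 12.9 CPM, beside 7.81, 6.98, 9.6 and 8.5 CPM over all tested genes. The granin gene Chgb was at 0.5, 0.0214, 72.7 and 63.5 CPM and Ptprn2, for a receptor-like phosphatase of vesicles, at 0.0185, 0.0107, 12.5 and 14.8 CPM. Syt4, for a calcium sensor of vesicles, had no count in the poor libraries and stood at 38.8 and 14.4 CPM in mice 3 and 4. Chga, the other chromogranin gene, was uneven between the rich libraries (0.0555, 1.34, 104 and 5.09 CPM). Vgf was low throughout (0.583, 1.11, 0.0348 and 0 CPM) and was the single member higher on the poor side. A wider group of 15 synaptic and secretory vesicle genes, put together after their values were seen and all near absent by selection, summed to 0.981, 0.353, 435 and 449 CPM. It holds Syp, for synaptophysin (0.194, 0.0642, 54.9 and 57.1 CPM), Syt1 (0.037, 0.0642, 44.6 and 35.1 CPM), Syt10 (0.0185, 0, 39.3 and 27.5 CPM) and Syngr3 (0.0185, 0.0214, 38.1 and 51.3 CPM).

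General neuronal lists are read against the same shares of all tested genes, 18.9% higher in both rich libraries and 0.729% near absent. Of 14 tested pan-neuronal genes, 7 were higher in both rich libraries and 3 were near absent, namely Celf4, Elavl2 (0, 0.0107, 16.3 and 13.9 CPM) and Syt1. The list sums were 131, 103, 1082 and 464 CPM. The neurofilament genes Nefl (0.00925, 14.5, 1.73 and 3.53 CPM) and Nefm (3.51, 14.8, 1.19 and 22.1 CPM) did not separate the sides. The third, Nefh (5.77, 3.59, 2.88 and 1.55 CPM), was the list's single member higher in both poor libraries (14.7% of all tested genes were). Rbfox3, which codes for the NeuN antigen of mature neurons, was at 0, 0, 1.77 and 2.03 CPM. Of the 12 tested genes of immature neurons, Dcx (0, 0, 13 and 10.5 CPM) and Dpysl3, for a protein of growth cones (0.00925, 0, 19.4 and 17.4 CPM), were near absent, and 8 were higher in both rich libraries. Sox4 of the same list was higher in both poor libraries (50.2, 62.2, 17.8 and 31.1 CPM). Also of that list were Stmn1 (552, 49.5, 1028 and 139.8 CPM), Ncam1 (208, 1.12, 226 and 30.4 CPM) and Stmn4 (159.5, 2.98, 225 and 10.8 CPM). They were higher in mice 1 and 3 than in mice 2 and 4, as the oligodendrocyte genes were. The part of other cells in these values was not tested.

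Channel and receptor counts are read against the 18.9% of all tested genes that were higher in both rich libraries and the 0.729% that were near absent. Of 17 tested sodium and calcium channel genes, 14 were higher in both rich libraries, but only Cacna2d3, an auxiliary calcium channel subunit, was near absent by the rule (0.0925, 0.0214, 30.4 and 11.5 CPM). Scn8a (0, 0, 3.5 and 4 CPM) and Scn2a (0.305, 0, 7.08 and 7.74 CPM), for pore-forming sodium channel subunits, were alike in mice 3 and 4. Of 19 potassium and HCN channel genes, 7 were higher in both rich libraries, with Kcnq3 near absent (0.611, 0, 28.4 and 16.1 CPM). The sodium leak channel gene Nalcn (0.00925, 0, 21 and 17 CPM) and Unc80, for its partner (0, 0, 23.8 and 10.4 CPM), were named after their values were seen. Of 22 tested transmitter receptor genes, 12 were higher in both rich libraries. Near-absent ones included the GABA receptor subunit gene Gabrb1 (0, 0.813, 13.3 and 22.4 CPM) and the glutamate receptor subunit gene Gria4 (0, 0.0107, 20 and 12.7 CPM).

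Further lists gave 1 or 2 near-absent members each or none, against 0.729% of all tested genes. Neuropeptide precursors gave 0 of 9 tested, with 3 higher in both rich libraries (18.9% of all tested genes were). Stereocilia and Usher proteins gave 0 of 12 tested, with 2 higher in both rich and 2 in both poor libraries (14.7% of all were the latter). At such shares, short lists without a near-absent gene say little. Oprk1, the kappa opioid receptor gene, was at 0.0185, 0.0535, 54.5 and 63.4 CPM, the single near-absent member among 7 tested opioid genes. Ddc, for a decarboxylase that makes monoamines and trace amines, was at 0.0185, 0.449, 43.9 and 39.2 CPM. It was the single near-absent member among 5 tested monoamine genes, while Th, Dbh, Tph2, Slc6a3 and Slc6a4 had no count. The synaptic release list, with 16 tested genes, held Nrxn3 (0.167, 0.0107, 25.5 and 41 CPM) and Rab3c (0.0648, 0, 15.9 and 19.1 CPM). The axon guidance and adhesion list, with 21 tested genes, held Cntnap2 (0.0278, 0, 17.2 and 10.3 CPM).

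Most near-absent rows, 108 of 135, stood in none of the 28 lists of 362 genes, and several go beyond the usual description of a neuron. The groups in this paragraph were formed after the values were seen. Racgap1, known for its part in the division of the cell body at mitosis, had 2, 2, 4634 and 6235 counts, or 0.0185, 0.0214, 53.8 and 69.5 CPM. Srd5a2, for a steroid reductase, was at 0.0185, 0.0107, 41.3 and 191 CPM. The sialyltransferase genes St6galnac5 (0, 0.0107, 59.5 and 51.2 CPM) and St8sia3 (0, 0.0749, 39.2 and 47.8 CPM) modify glycans at the cell surface. Cilium genes on the list were Rsph9, for a radial spoke protein (0, 0.0107, 23.8 and 32 CPM), Dnah1, for an axonemal dynein (0, 0, 11.4 and 12.2 CPM), Stk33 (0, 0, 14.4 and 24.2 CPM) and Cep126 (0.0185, 0, 11.2 and 13.9 CPM). Nxph1, whose product binds neurexins, was at 0.0278, 0.0214, 49.1 and 111 CPM. Small X-linked proteins were represented by Bex1 (0, 0.0321, 46 and 41.4 CPM), Tceal3 (0.389, 0.0428, 30.8 and 28.9 CPM) and Tceal6 (0, 0.91, 19.5 and 15.4 CPM). Members of that family are much alike in sequence, so their split of reads is uncertain.

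Markers of other cells moved with the sides in part. None of the 62 tested members of the 10 lists for glia, ependyma, vessels, fibroblasts, Schwann cells and the stress response was near absent, which at 0.729% of all tested genes says little about these lists. Of 10 tested ependymal genes, 5 were nevertheless higher in both rich libraries (18.9% of all tested genes were). The sums of this ependymal list were 0.00925, 0.621, 13.7 and 85.6 CPM. Its defining gene Foxj1 was at 0, 0, 1.44 and 0.702 CPM, and in mouse 4 Ccdc153 reached 15.8 and Rsph1 15.1 CPM. The cilium genes named above were also higher in both rich libraries. Like the list's sum they were higher in mouse 4 than in mouse 3, though by less. In mice 3 and 4 Rsph9 was at 23.8 and 32, Dnah1 at 11.4 and 12.2, Stk33 at 14.4 and 24.2 and Cep126 at 11.2 and 13.9 CPM. The part of ependymal cells in them was not tested. One of the 62, the matrix gene Dcn, was at least 10 times higher in both rich libraries (1.41, 0.0963, 989.5 and 108 CPM). All 8 fibroblast genes added up to 11.4, 0.203, 1024 and 116 CPM, and Dcn was the larger share of this total in the rich libraries only. Of that list, Col1a2 was at 6.96, 0.0107, 5.05 and 0 CPM and Igf2 at 3.08, 0.0963, 29.5 and 6.61 CPM, while Col1a1, Col3a1, Pdgfrb and Slc6a13 had no count. For immediate early and heat shock genes, which are known to respond to tissue dissociation, the sums were 16874, 10829.9, 5478 and 8876 CPM. Both poor libraries were higher than both rich ones in 6 of these 9 genes (14.7% of all tested genes). The part of that response in the split was not tested.

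**Figure D4:**
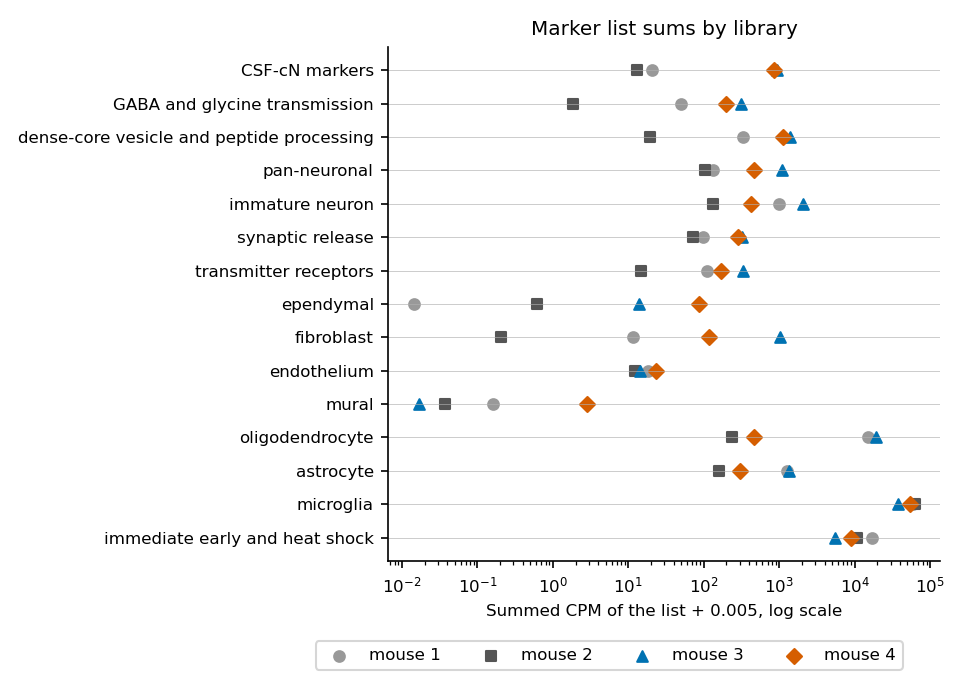
Summed CPM of 15 marker lists (x axis, CPM + 0.005, log scale) with 1 point per library. The CSF-cN markers sum to 942 and 846 CPM in mice 3 and 4 and to 20.3 and 12.9 CPM in mice 1 and 2, whereas the oligodendrocyte list is high in mice 1 and 3 and the microglia list is at 38081 CPM or more in every library. Of the CSF-cN sums, Pkd2l1 alone gives 665, 690.1 and 17.9 CPM in mice 3, 4 and 1, and Tal1 gives 10.3 CPM in mouse 2.

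A further 37 rows (0.2% of those tested) were at least 10 times higher in the lower rich than in the higher poor library but at 1 CPM or more in a poor library. One repeats another row (a copy of Meg3), which leaves 36 genes. Their traces differed between the poor libraries, since 12 rows were at 1 CPM or more in mouse 1 alone, 19 in mouse 2 alone and 6 in both. Pkd2l1 was of the first kind. Its level in mouse 1 was 2.69% of the lower rich value and in mouse 2 0.029%, whereas Zcchc12 was at 0.023% and 0.0292% and Gad1 at 0.0169% and 0.0976%. The secretory chaperone gene Scg5 (8.44, 0.182, 149.8 and 146 CPM) and Ndrg4 (4.39, 0.0214, 145 and 112 CPM) also had their trace in mouse 1. Bex2 (0.0648, 3.99, 201 and 201 CPM), the granin gene Scg2 (0.305, 3.05, 168 and 292 CPM) and the small GTPase gene Rit2 (0.0278, 4.43, 72.5 and 90.9 CPM) had it in mouse 2. Mouse 1 thus held Pkd2l1 transcripts with almost no Zcchc12, Gad1 or Myo3b transcripts.

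The largest ratios among these 36 genes fell in the lower part of the range of the near-absent genes. In that range Mt3 was 13.3 times and Zcchc12 3420 times higher in the lower rich than in the higher poor library. The membrane glycoprotein gene Gpm6a was 112 times higher (0.0555, 1.19, 133 and 134 CPM) and Pcsk1n, for a protein that inhibits a prohormone convertase, 105 times (1.5, 1.15, 157 and 178 CPM). Plcb4, a phospholipase gene (0.037, 1.04, 80 and 129.8 CPM), and Kcnip4, for a potassium channel partner (0.074, 1.08, 72.2 and 88.9 CPM), lay just outside the limit of 1 CPM. So did Fzd3, a Wnt receptor gene (0.0185, 1.08, 21.1 and 19.9 CPM). Just inside it were Cald1 (0.981, 0.0107, 20.5 and 20.7 CPM), the cyclin gene Ccnd2 (0.204, 0.942, 19 and 18.6 CPM) and Tceal6. At the limit of 10 CPM, Pou3f2, Mt3 and Cntnap2 were just inside, with 10.1, 10.1 and 10.3 CPM in their lower rich library, and Smarca1, Hoxb7 and Qrfprl just outside, with 9.99, 9.94 and 9.6 CPM.

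The 2 rich libraries were compared with each other, which the choice of sides did not fix except that both had to reach 10 CPM. Mouse 4 held 10.9 times as much transgene as mouse 3 (157 and 1709 CPM), whereas its Pkd2l1 (1.04 times), Zcchc12 (1.1 times) and Gad1 (1.13 times) were close to those of mouse 3. With 1 library on each side of this comparison there is no replicate check. A second construct row, PC.G5.tdT, moved with the transgene (0, 0.0856, 8.82 and 111 CPM), at 1 count for 17.8 and 15.5 transgene counts in mice 3 and 4. Whether the 2 rows share reads was not tested. The row CRE.ERT2 had 1 count, in mouse 4.

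Over the 134 near-absent genes other than the transgene, the median log2 ratio of mouse 3 to mouse 4 was 0.08, with quartiles of -0.28 and 0.44, and 72 genes were higher in mouse 3 and 62 in mouse 4. A ratio within 2-fold was found for 112 genes (83.6%), against 84.5% of the 7728 other genes at 10 CPM or more in both rich libraries. By this share the near-absent genes varied between these mice about as much as the other genes did. Their median absolute log2 ratio was smaller, 0.352 against 0.459. Across the 134 genes the levels in mouse 3 and mouse 4 had a Spearman correlation of 0.711. The genes share the 2 libraries and their own lengths, so this is a description across genes only.

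The largest departures were few. Nnat, an imprinted gene of neuroendocrine cells (10.7 and 52 CPM), and Srd5a2 (41.3 and 191 CPM) were higher in mouse 4, with log2 ratios of mouse 3 to mouse 4 of -2.29 and -2.21, as were Spon1 (-1.33) and the metallothionein gene Mt3 (-1.29). Lrrn3 (75.4 and 15.8 CPM, log2 ratio 2.25), the thrombin receptor gene F2r (91.7 and 28.9 CPM, 1.67), Syt4 (1.43), Cacna2d3 (1.41) and Rprm (51.2 and 20.4 CPM, 1.33) were higher in mouse 3. The transgene, at -3.44, departed more than any of the 134 genes.

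**Figure D5:**
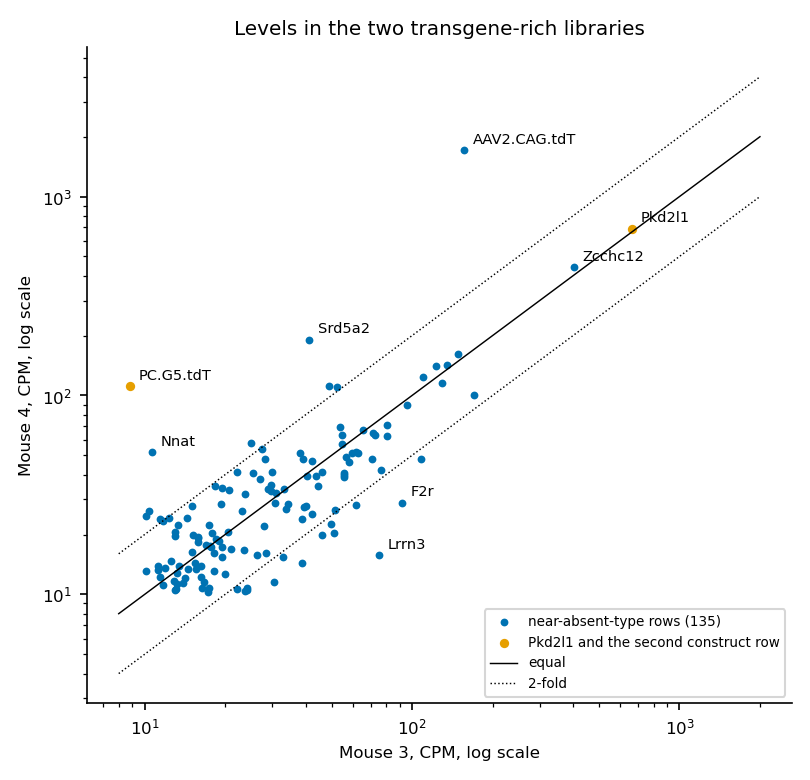
CPM in mouse 3 (x axis) and mouse 4 (y axis) of the 135 near-absent rows in blue, with Pkd2l1 and a second construct row, PC.G5.tdT, in orange (both log scales). The solid line marks equal levels and the dotted lines a 2-fold difference, within which 112 of 134 genes lie. AAV2.CAG.tdT and PC.G5.tdT lie far above the lines at 1709 and 111 CPM in mouse 4.

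Some genes were high in a single rich library. At least 10 CPM in mouse 3 and under 1 CPM in the other 3 libraries was found for 55 genes (0.297%), and the same for mouse 4 in 25 (0.135%), mouse 1 in 11 (0.0594%) and mouse 2 in 12 (0.0648%). Among those of mouse 3, named after their values were seen, were Rgs7, for a regulator of G proteins (0.00925, 0.995, 29.5 and 0.0111 CPM), Crhbp, for a protein that binds a stress hormone (0.0185, 0, 26.3 and 0 CPM), and Oprl1, the nociceptin receptor gene (0.0185, 0, 20 and 0.156 CPM). Among those of mouse 4 were Iigp1, an interferon-inducible gene (0, 0.0428, 0.0116 and 47.6 CPM), Cdkl4 (0, 0.0107, 0 and 22.2 CPM) and the ependymal gene Ccdc153. The cytoskeletal gene Map2 also differed, with 63.4 CPM in mouse 3 and 0.401 CPM in mouse 4. The near-absent genes by their rule leave out all of these.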

How the data were processed

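The authors deposited whole-number raw counts (42458 rows, 2 columns a mouse) and a table of log2 values. Build mm10 and the tools STAR, RSEM, DESeq2, FastQC and Trim Galore are named in the submitters' processing notes, with no versions or settings. Per the labels' protocols, complementary DNA came from the Smart-Seq v4 kit with 11 PCR cycles and libraries from Nextera XT, so no strand and no molecular identifiers are kept. From the values, the deposited log2 table is log2 of the counts summed per mouse over a size factor, plus 1; it served as an alternative. What the 2 count columns of a mouse are is not stated; they differed by more than sampling noise (mean chi-square per gene 1.95 to 2.21) and were summed as repeat runs, since the labels give 1 library a mouse. Column numbers were taken as mouse numbers. No column was left without a sample.

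CPM were scaled with TMM factors (edgeR 4.0.16, R 4.3.3; 0.936, 0.982, 1.04 and 1.05). No test was run between the sides: they were set from the data, and an exact test of 2 against 2 cannot give a two-sided p below 0.333. The selection was run on simulated counts with genes planted far past both limits, which checks its code and not the choice of limits for these libraries. Gene models came from GENCODE M21 on GRCm38 (27962 rows matched), upstream sequences from RefSeq on GRCm38.p6. Python 3.11.15 with pandas 2.3.3 and scipy 1.17.1 was used. The members and lists were chosen with earlier results of these data known. Named were the 4 markers, all CSF-cN markers, 30 near-absent genes by lower rich CPM, 3 per list, 15 further genes by ratio, 5 each way by mouse 3 to mouse 4 ratio, those of the exchanged rule and 3 next to each limit; any other gene was named once its values had been seen. Some members of the lists are not reported here. Of the exchanged rule, and of the rest, predicted genes were counted but not named. Alternatives were other scalings, limits, filters, single runs, length, and each mouse left out.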

Additional observations from a re-analysis of the deposited data

Results flagged for a closer look

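Tal1 was flagged because 1 library lay far from the other 3 on the scale of log2(CPM + 1): mouse 1, at 0.898 CPM, was separated from the nearest library by 0.841 of the whole range, which is above Dixon's 95% critical value for 4 samples. Chance flags about 1 in 20 groups, and 87 named genes were looked at. The other 3 libraries, mouse 2 of the transgene-poor side among them, were at 10.3, 10.8 and 14.8 CPM.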

How the results depend on the processing

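The number of near-absent genes, 135 with the chosen limits, was 283 with a limit of 5 CPM and 67 with 20 CPM on the rich side, and between 225 and 280 with a mouse left out; the other alternatives, among them DESeq2 size factors (137), total counts (137) and a near-absent limit of 0.3 CPM (120) or 3 CPM (187), moved it by no more than 1.5 times. The number of genes at least 10 times higher but not near absent, 37, was 14 with a near-absent limit of 3 CPM and 35 to 70 with a mouse left out. With the sides exchanged the number, 4, was 2 with DESeq2 size factors, total counts, the deposited table, exonic length or a near-absent limit of 0.3 CPM, 14 with 5 CPM, 1 with 20 CPM, 15 with a near-absent limit of 3 CPM, and 16 to 38 with a mouse left out. Leaving a mouse out keeps 1 library on its side, so fewer libraries have to meet a limit. The median log2 ratio of mouse 3 to mouse 4 stayed between 0.07 and 0.1. Of 729 recomputed ratios for 73 named genes, 114 moved by more than the spread between libraries and 0 reversed. Of the 114, 73 came with a mouse left out, which cannot lower the ratio. The genes had been chosen for a large gap between the sides, so a reversal was hardly possible and its absence is no support. No paired analysis was possible because the 4 libraries form a single labelled group. The traces on the poor side rest on few counts, so folds over them are imprecise.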

Other observations

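Imprinted genes, which are expressed from 1 parental copy and many of which are active in neuroendocrine cells, formed another group on the rich side. Of 17 tested members, 13 were higher in both rich libraries, against 18.9% of all tested genes, and the list's median was 2.7, 0.524, 44.4 and 38 CPM, beside 7.81, 6.98, 9.6 and 8.5 CPM over all tested genes. Most stayed outside the near-absent genes because the poor libraries held them too. Ndn was at 51.7, 4.93, 546 and 424 CPM, Nap1l5 at 87.4, 9.94, 503 and 479 CPM, and Snrpn, whose reads may be shared with the overlapping gene Snurf, at 49.6, 7.54, 358 and 212 CPM. Within this group mouse 1 exceeded mouse 2 in these 3 genes. Meg3, a long noncoding RNA gene, was at 0.00925, 1.31, 79.5 and 51.7 CPM, and Peg3 at 2.7, 0.524, 44.4 and 38 CPM.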
